A study of Mus musculus with 2 samples.

Results

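The genes described here are those that lie around *Dnm1l* on mouse chromosome 16. *Dnm1l* encodes Drp1, the dynamin-related GTPase that divides mitochondria, and it was the gene deleted in this study. The members were all gene names with a probe wholly between positions 12000000 and 17900000 of chromosome 16 in mm9, the build of the array files, without *Dnm1l*, *Mcm4* and *Abcc1*. This rule of position and name used no measured value, but it was chosen with earlier results of these data known. Statements on flanking genes below do not cover the genes left out. The rule gave 100 of the 37074 gene names on the array, with 186 probes of 60 bases. Of these 100 genes, 69 were detected, that is, had a probe well above background on at least 1 array, and 31 were not.

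Expression was measured in primary hepatocytes of mice on a C57BL/6 background, cultured for 24 h after seeding. *Drp1*LiKO cells came from mice that carried the *Alb-Cre* transgene (Tg/+) and *Drp1* flox/flox. The study's methods give the controls as *Drp1* flox/flox siblings without Cre, so that both genotypes would carry the floxed allele on both copies of the chromosome, whereas the labels of the samples call the control wild type. The age and number of the mice behind each array were not given in the sources used here. The albumin promoter drives Cre in hepatocytes, and other liver cells in a preparation keep *Drp1*. There was 1 array per genotype, from the same slide, so no test was made, no value has a replicate error, and each difference describes these 2 arrays only. Their number limits the precision of every value below.

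A conditional allele is made in embryonic stem cells and then carried through crosses together with the stretch of chromosome around it. Genes near the modified locus can therefore come from another strain than the rest of the genome, and elements placed in the locus can act on neighboring promoters. These are known features of gene targeting and were not measured here. The strain of the stem cells, the deleted exons and the genotype of the flanking chromosome were not given in the sources used here. If the controls were flox/flox siblings, the flanking stretch is shared by both arrays; if they were wild type, its origin cannot be told apart from the loss of *Drp1*.

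The probes that measure the targeted gene, its nearest protein-coding neighbors and the members with the largest differences are shown by their middle 30 bases, 5′ to 3′ on the strand of the probe, with the position of the stretch in mm9. Capitals mark bases within a run of 20 or more that is also in the probe of another gene, on either strand. The sequences are those in the array files, and whether each stretch is coding or untranslated was not determined, since no annotation of mm9 was used here.
*Dnm1l*, chr16:16312378-16312407, minus strand: acatggagataatttctggcatatttataa
*Pkp2*, chr16:16272663-16272692, plus strand: ggaacacctgagaaagagtgtgtgaatgat
*Yars2*, chr16:16309659-16309688, plus strand: cacaaggcccctcacaatgtaaataatcat
*Fgd4*, chr16:16422259-16422288, minus strand: acctccatgtaaccaaaatagatctatggt
*Serpind1*, chr16:17343559-17343588, plus strand: tgagatgttcggacttttaaattcatgtaa
*Aifm3*, chr16:17507530-17507559, plus strand: caagccccttcaacattaccttaaaattaa
*Sdf2l1*, chr16:17130441-17130470, minus strand: aaccctggggaagatctgaaggtgccagcc

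In the following, a relative signal is the background-corrected signal of a probe divided by the 75th percentile of its array, and a log2 ratio is *Drp1*LiKO over control on that scale. A gene is represented by its brightest probe. The Z score is the distance of a log2 ratio from the mean of all detected probes in SDs, with the study's threshold of 2. The brightest *Dnm1l* probe had a relative signal of 8.30 on the control array and 3.42 on the *Drp1*LiKO array, for a log2 ratio of -1.28. Its Z score of -1.95 lay just short of the threshold. The other *Dnm1l* probe was near background on both arrays. Whether either probe lies in the deleted part is not given in the sources used here.

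No member passed the threshold in either direction. None of the 69 detected genes had a Z score of 2 or more, where 3.5% of all 20165 detected genes did, and none had a Z score of -2 or less, where 2.81% did. At a 2-fold difference, a second threshold chosen after the values were seen, none of the 69 was higher, against 5.32% of all genes. By the same threshold *Aifm3* and *Serpind1* were lower, against 4.59% of all genes. The median log2 ratio of the 69 genes was -0.01 (interquartile range -0.20 to 0.23), with 33 genes above 0 and 36 below. For genes above background on the *Drp1*LiKO array only the value is a bound, and a bound below 0 gives no sign. All detected genes had a median of -0.05 (-0.27 to 0.21), and the 580 other detected genes of chromosome 16 also had a median of -0.05 (-0.25 to 0.26). In the tails the flanking genes were narrower, with values from -1.11 to 0.91, an SD of 0.38 and 61 genes (88.4%) within 0.5 of zero. The rest of the chromosome had an SD of 0.69 with 435 of its 580 genes within 0.5, and all genes an SD of 0.69 with 75.1%. With 1 array per genotype this difference in spread is a description. Signs here are those of the percentile scale: with spike-in probes as the scale every log2 ratio would be 0.31 higher and the median of all genes 0.26, so that values between -0.31 and 0 would turn above 0.

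**Figure D1:**
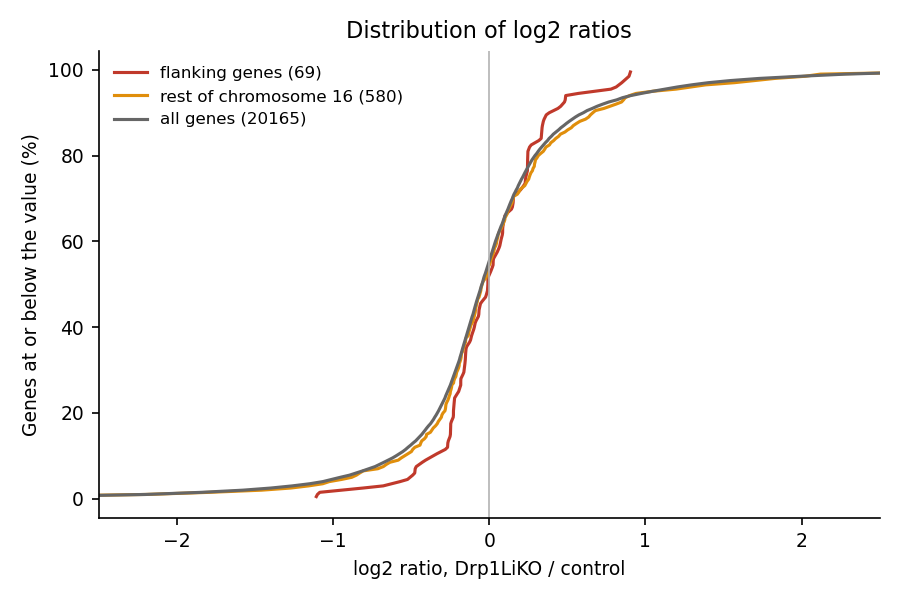
Cumulative distribution of log2 ratios (x axis, Drp1LiKO over control) against the percent of genes at or below each value (y axis) for the 69 detected flanking genes, the 580 other detected genes of chromosome 16 and all 20165 detected genes; the x axis stops at 2.5 on each side. The 3 curves run together in the middle, and the curve of the flanking genes ends at -1.11 and 0.91, inside the tails of the others.

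Distance from *Dnm1l* did not order the differences. Distances are from the middle of the brightest *Dnm1l* probe to that of each gene's brightest probe. Of 37 members within 1 Mb, 27 were detected, and their median log2 ratio was 0.05, with 14 above 0 and 13 below; it was -0.05 with normexp background correction, -0.07 over probes above background on both arrays and -0.02 with the deposited table. The median was -0.12 for the 9 genes within 0.5 Mb, 0.11 for the 18 genes from 0.5 to 1 Mb, -0.09 for the 20 genes from 1 to 2 Mb and 0.06 for the 22 genes farther away. The median size of a log2 ratio, without its sign, was 0.16, 0.24, 0.21 and 0.23 in the same order. Across the 69 genes the Spearman correlation between distance and size was -0.05, a description over genes measured on the same 2 arrays. The largest differences on the side of lower coordinates were *Pkp2* and *Ercc4* below 0 and the noncoding RNA *Gm15738* above it. On the side of higher coordinates, all of the members beyond 0.5 in size lay between 0.77 and 1.26 Mb away.

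**Figure D2:**
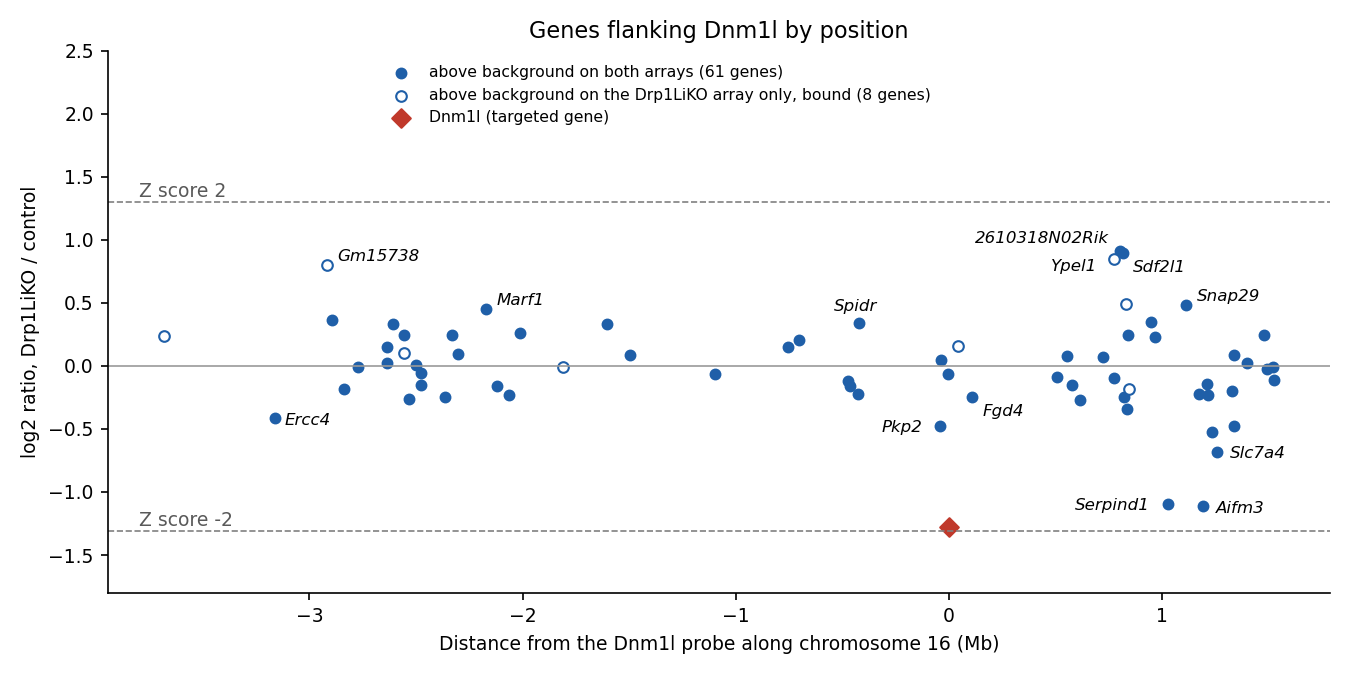
Log2 ratio (y axis, Drp1LiKO over control) of the 69 detected flanking genes and of Dnm1l against distance from the Dnm1l probe in Mb (x axis, negative toward lower coordinates); filled points were above background on both arrays, open points on the Drp1LiKO array only and are bounds, and dashed lines mark Z scores of 2 and -2. All flanking genes lie between the dashed lines, and the largest differences are about 1 Mb from Dnm1l, not beside it.

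The genes next to *Dnm1l* showed small differences. *Yars2*, the mitochondrial tyrosyl-tRNA synthetase, lies 2.7 kb from the *Dnm1l* probe. Its relative signal was 19.2 on the control array and 18.4 on the *Drp1*LiKO array, for a log2 ratio of -0.07, and its other detected probe gave -0.20. *Pkp2*, the desmosomal plakophilin 2, lies 39.7 kb away and had a relative signal of 18.7 on the control array and 13.5 on the *Drp1*LiKO array. This log2 ratio of -0.47, or 1.39-fold lower, was the largest in size within 0.5 Mb, and its 2 dimmer probes also lay below 0, at -0.07 and -0.22. *Fgd4*, an exchange factor for the GTPase Cdc42, lies 110 kb away on the other side and gave 0.333 and 0.281, a log2 ratio of -0.25. Its second detected probe went the other way, at 0.20. The 3 nearest protein-coding neighbors thus all lay below 0, with a median of -0.25, but with spike-in scaling *Yars2* and *Fgd4* turned above 0, and the sign of *Fgd4* also depended on the probe.

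Between these genes, the probe of the pseudogene *Gm5481*, 36.5 kb from *Dnm1l*, had a relative signal of 58.8 on the control array and 60.9 on the *Drp1*LiKO array. The expressed sequence *BB634935*, 46.2 kb away, was above background on the *Drp1*LiKO array only, and its log2 ratio of 0.16 is a bound. Farther out, within 0.5 Mb, *Prkdc* had a log2 ratio of -0.12, the mitotic spindle gene *Mzt2* -0.16, *Cebpd* -0.23 and *Spidr* 0.34. *Cebpd* and *Spidr* thus lay on opposite sides of 0 although their probes start at 15888459 and 15889343, close to each other.

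The 2 members with the largest lower values were *Aifm3* and *Serpind1*. *Serpind1* encodes heparin cofactor II, a thrombin inhibitor that hepatocytes secrete into plasma. It had a relative signal of 4.96 on the control array and 2.33 on the *Drp1*LiKO array, for a log2 ratio of -1.09 (2.13-fold lower, Z score -1.66). *Aifm3*, a relative of the mitochondrial flavoprotein AIF, had 0.423 and 0.196, a log2 ratio of -1.11 (2.16-fold lower, Z score -1.70), and -0.73 with normexp background correction. Each of these genes had 1 probe. The noise between spots, taken from 281 probes printed repeatedly on each array, gave an SD of 0.109 for a single-spot log2 ratio at the signal of *Serpind1*. For *Aifm3* it gave 0.114. The same 0.114 was obtained for *Pdxdc1*, at 2.87 on the control array, and for *Myh11*, at 0.0932. The value is thus not particular to the signal of *Aifm3*, whose own noise was not resolved. Such noise is error within the arrays and says nothing of mice or cultures.

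The next lower values were those of *Slc7a4*, a relative of the cationic amino acid transporters, *Lrrc74b*, *Ccdc74a* and *Pkp2*. *Slc7a4* had a relative signal of 1.57 on the control array and 0.976 on the *Drp1*LiKO array, for a log2 ratio of -0.68. *Lrrc74b* was dim, at 0.158 and 0.110, with a log2 ratio of -0.53. Its second detected probe, above background on the *Drp1*LiKO array only, gave a bound of 0.59 in the other direction. *Ccdc74a* gave 0.138 and 0.0990, a log2 ratio of -0.48, and -1.23 with the deposited table.

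Most of these genes lie together. In order along the chromosome, the 8 members from *Crkl* to *Ccdc74a* detected on both arrays (*Crkl*, *Aifm3*, *Lztr1*, *Thap7*, *Lrrc74b*, *Slc7a4*, *Smpd4* and *Ccdc74a*) all had log2 ratios below 0, and all below the median of all genes. They span 163 kb, from 17487457 to 17650811, and their median was -0.35. This was the longest stretch of one sign among the 61 members detected on both arrays. The next had 4 members, all above 0, among them *Bfar* and *3110001I22Rik*, which matched the same RefSeq gene. In the stretch of 8, sizes were uneven, from -0.15 for *Lztr1*, an adaptor of a ubiquitin ligase, and -0.20 for the sphingomyelinase *Smpd4* to -1.11 for *Aifm3*. *Snap29*, just before the stretch, was higher, and *Med15*, just after it, lay at 0.09. With the median of each gene's probes in place of the brightest, 6 of the 8 were below 0 and 6 below the median of all genes. The median of the 8 was then -0.17. With the deposited normalized table, 6 of the 8 were also below 0 and 5 below the median of all genes, at a median of -0.30. With spike-in scaling 4 of the 8 were below 0, and all 8 below the median of all genes. The stretch was picked after the values were seen.

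Among the members measured on both arrays, the higher values were smaller. *2610318N02Rik*, a gene of unknown function, had a relative signal of 0.0984 on the control array and 0.185 on the *Drp1*LiKO array, for a log2 ratio of 0.91 (1.88-fold higher). Its second probe gave 0.99, so both probes of this dim gene gave similar values. With normexp background correction, however, the log2 ratio was 0.29. *Sdf2l1*, an endoplasmic reticulum protein that works with the chaperone BiP, lies next to it among the detected members. It gave 1.30 and 2.41, a log2 ratio of 0.90 (1.86-fold higher, Z score 1.39) from 1 probe. *Snap29*, a SNARE protein of membrane fusion, followed with 6.47 and 9.05, a log2 ratio of 0.49. *Marf1*, an RNA-binding protein known from oocytes, had 0.45, and *Mkl2*, a coactivator of serum response factor, had 0.37. The brightest probe of *Marf1* was the highest of 4, and the others lay between -0.09 and 0.13. That of *Mkl2* was also the highest of 4, and its other probe measured on both arrays gave -0.02.

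**Figure D3:**
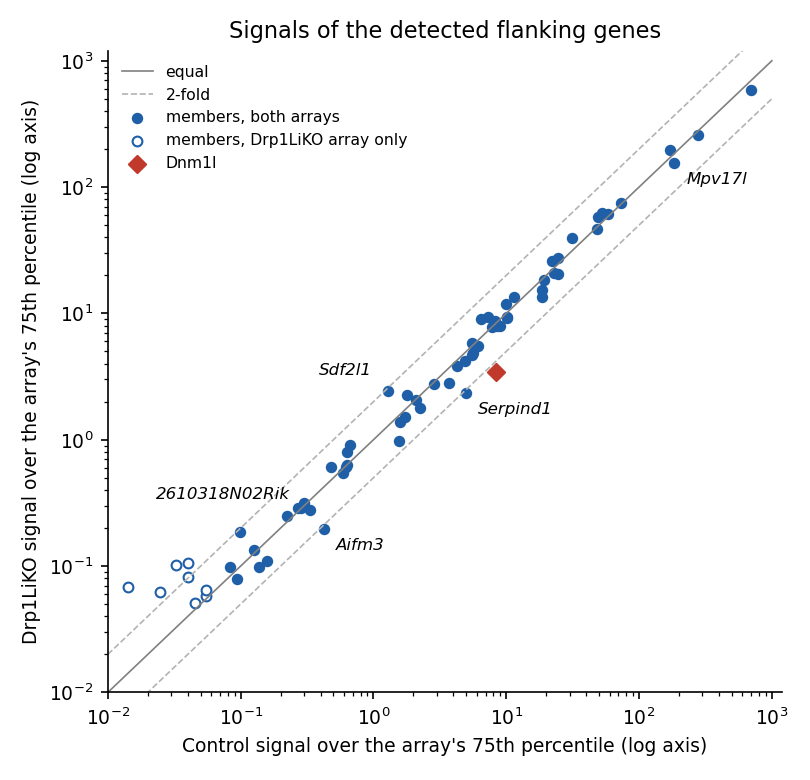
Relative signal (processed signal over the array's 75th percentile) of each detected flanking gene and of Dnm1l in control cells (x axis) and Drp1LiKO cells (y axis), both on log axes; the solid line marks equal signals and the dashed lines 2-fold. Filled members follow the solid line over the whole range of signals, with Aifm3 and Serpind1 just below the lower dashed line. Open points were above background on the Drp1LiKO array only.

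Of the 69 genes, 8 dim ones were above background on the *Drp1*LiKO array alone, and no gene was so on the control array alone. The lowest relative signal well above background was 0.0582 on the control array and 0.0421 on the *Drp1*LiKO array, so that dim genes could be detected at a lower relative level in *Drp1*LiKO cells. The largest bounds were 1.80-fold higher for *Ypel1*, 1.74-fold for *Gm15738* and 1.40-fold for *Ccdc116*. They hold only if the control signal lay no higher than 0.0582. This is not a strict limit, since a dim *Med15* probe at 0.0660 on the control array was not well above background there. The other probes of *Ypel1* were above background on neither array. The bounds of these genes depended on the background correction, and also differed with the deposited table. The log2 ratio of *Ypel1* was 0.85, but 0.14 with normexp background correction and 0.11 with the deposited table, that of *Gm15738* was 0.80, but 0.23 and 0.24, and that of *Ccdc116* was 0.49, but 0.03 and -0.98. Without these genes, the median of the 61 members measured on both arrays was -0.06, with 27 above 0 and 34 below. All genes measured on both arrays had a median of -0.05.

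By role, the list named for the endoplasmic reticulum and membrane traffic was the one whose members all lay above 0. One of them, *Ube2l3*, encodes a ubiquitin-conjugating enzyme that is not particular to these membranes. The 5 genes had log2 ratios from 0.23 to 0.90 with a median of 0.33, and none passed the threshold. All 5 were also above 0 with quantile normalization, normexp background correction, the deposited table and the median of each gene's probes. The other alternatives left these values unchanged or, with spike-in scaling, raised them all, and so could not turn them below 0. *Sdf2l1* and *Snap29* led. The apoptosis regulator *Bfar*, a protein of the endoplasmic reticulum membrane, had a relative signal of 31.2 on the control array and 39.3 on the *Drp1*LiKO array, for a log2 ratio of 0.33. Its dimmer probes gave 0.03 and -0.36. A separate member, *3110001I22Rik*, matched the same RefSeq gene and gave 0.02. The ubiquitin-conjugating enzyme *Ube2l3* gave 0.25, and its second probe 0.27. The phosphatidylinositol 4-kinase *Pi4ka* gave 0.23 from its brightest probe and 0.45 from the other probe measured on both arrays.

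*Sdf2l1* is a textbook target of the unfolded protein response, by which cells raise chaperones when proteins misfold in the endoplasmic reticulum. Of 7 other genes of that response, which lie outside the interval, 6 were above 0 and 1 below, with a median of 0.45, and none passed the threshold. The cochaperone *Dnajb9* had a relative signal of 2.59 on the control array and 4.40 on the *Drp1*LiKO array, for a log2 ratio of 0.76. *Creld2* had 0.63, *Hyou1* 0.49, *Pdia4* 0.45 and *Manf* 0.37. The chaperone BiP itself, *Hspa5*, was at 0.06, and *Dnajb11* was at -0.33. The log2 ratio of *Sdf2l1* was above that of each of these 7 genes.

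The genes of DNA repair and genome maintenance were divided, with 2 of 6 above 0, 4 below, and a median of -0.07. *Ercc4*, a subunit of the nuclease of nucleotide excision repair, had the lowest value, a relative signal of 3.74 on the control array and 2.80 on the *Drp1*LiKO array and a log2 ratio of -0.42. *Spidr*, a scaffold of homologous recombination, had the highest, 1.80 and 2.27, at 0.34. *Prkdc*, the catalytic subunit of DNA-dependent protein kinase, was at -0.12, the ubiquitin-conjugating enzyme variant *Ube2v2* at 0.15, and the poly(A)-specific ribonuclease *Parn* at -0.01. The 6 end-joining partners of *Prkdc* elsewhere in the genome had a median of 0.12, from -0.31 for *Xrcc6*, which encodes Ku70, to 0.46 for the nuclease Artemis, *Dclre1c*. None of these 12 genes passed the threshold.

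Transcription factors and signaling genes were evenly split, 5 above 0 and 5 below, with a median of -0.04. *Mkl2* at 0.37, the transcriptional repressor *Hic2* at 0.35 and the zinc finger factor *Snai2* at 0.34 were the highest. The phosphatase *Ppm1f* at -0.27, the zinc finger protein *Thap7* at -0.23 and *Cebpd* at -0.23 were the lowest. These ranks rest on the brightest probes. The other *Mkl2* probe measured on both arrays gave -0.02, and the second probe of *Ppm1f* gave 0.20. By contrast, the second probe of *Hic2* gave 0.72, and the dimmer probes of *Thap7* also lay below 0. *Cebpd* encodes C/EBPδ, a factor of the acute-phase response; its relatives elsewhere in the genome had -0.36 for *Cebpa*, 0.16 for *Cebpb* and 0.13 for *Cebpg*.

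The 4 contractile and cytoskeletal genes all lay below 0, with a median of -0.24, but with spike-in scaling all except *Pkp2* turned above 0. Besides *Pkp2* and *Fgd4*, they were *Nde1*, a dynein regulator, at -0.16, and *Myh11*, the myosin heavy chain of smooth muscle, at -0.23. *Myh11* was close to background at 0.0932 and 0.0795. Of the 31 listed genes whose human counterparts lie in the 22q11 region, 26 were members and 23 of these were detected. They had a median of -0.02, with 11 above 0 and 12 below, and held both *Serpind1*, *Aifm3* and *Slc7a4* at one end and *Sdf2l1* at the other. *Tmem191c*, *P2rx6* and *Tssk1* were not detected.

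**Figure D4:**
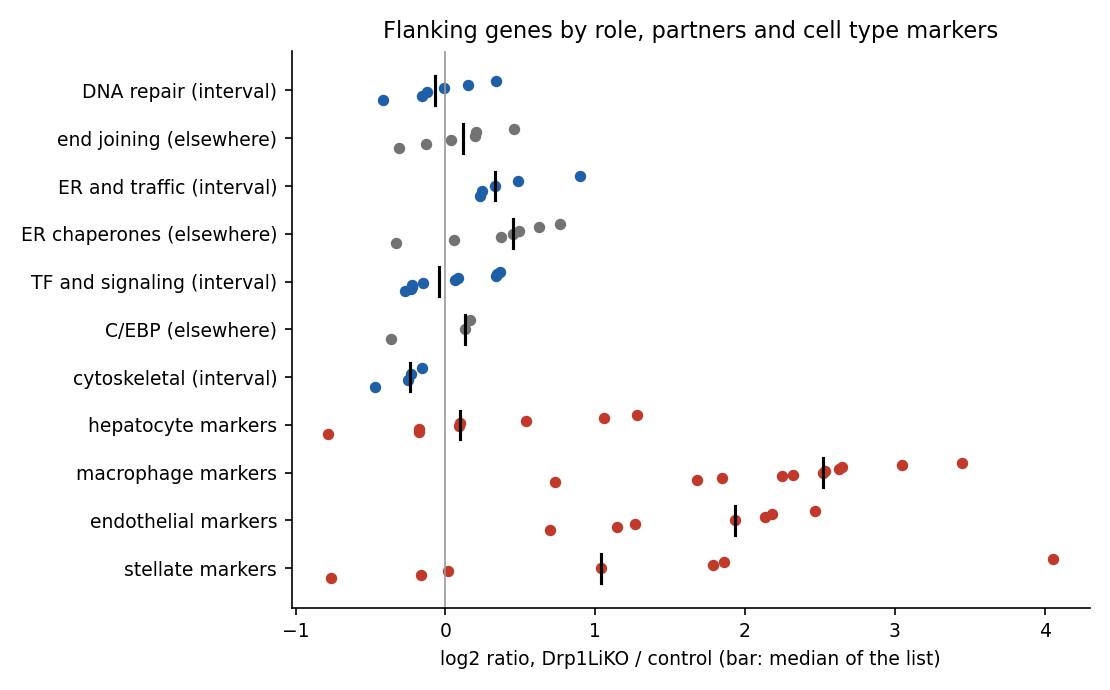
Log2 ratios (x axis, Drp1LiKO over control) of genes grouped by role (y axis): blue, members of the interval; gray, partners elsewhere in the genome; red, cell type markers; the black bar is the median of each list. The 4 lists of the interval drawn here have medians between -0.24 and 0.33, whereas the macrophage markers center on 2.52.

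Macrophage and endothelial markers had larger log2 ratios than the flanking genes, with medians of 2.52 and 1.93. All 8 hepatocyte markers were detected, 5 above 0 and 3 below, with a median of 0.10 and none past the threshold. They ran from -0.78 for *Cyp2e1* to 1.06 for *Tdo2* and 1.28 for *Tat*. Their summed relative signal, 1965 on the control array and 1912 on the *Drp1*LiKO array, came mostly from *Serpina1a* and *Alb*. Of 12 macrophage markers, 11 were detected and all were higher in *Drp1*LiKO cells, 10 of them past the threshold; their summed relative signal was 15.0 on the control array and 57.6 on the *Drp1*LiKO array, and *Timd4* was not detected. All 7 endothelial markers were also higher, from 13.1 to 23.7 in sum, 4 of them past the threshold. The values of *Clec4f*, *Vsig4* and *Lyve1*, which passed the threshold, are bounds. Of 8 stellate and smooth muscle markers, 7 were detected, 5 above 0 and 2 below, with a median of 1.04, and 3 were higher past the threshold. The 3 were *Dcn* at 4.06, *Pdgfrb* at 1.86, which is a bound, and *Tagln* at 1.79, whereas *Cnn1* was at -0.77. *Des*, counted below 0 at -0.16, was above background on the *Drp1*LiKO array only, so this bound gives no sign. The sums of this list were 74.1 and 94.7, mostly *Acta2*, which was at 0.02. *Lrat* was not detected. Of 4 B cell markers, 1 was detected, *Ms4a1*, which was above background on the *Drp1*LiKO array only. In such bulk RNA, more cells of a type and more RNA per cell cannot be told apart. The part of other cell types in the values of the flanking genes was not tested.

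Several members had more than 1 probe, which gives a view of how far a gene's value depends on its probe. Of 31 genes with at least 2 detected probes, 17 had all of them on one side of 0. This count takes bounds at their value, although a bound below 0 gives no sign. Such bounds were -0.16 for a probe of *Mpv17l*, counted on one side, and -0.17 for a probe of *Klhl22*, counted on both. Of the 115 detected member probes, 1 passed the Z score of 2 and none passed -2, where 2.94% and 2.49% of all 30275 detected probes did. That probe belongs to *Top3b*, a topoisomerase that relaxes DNA and RNA. Its brightest probe, which starts at 16892994, had a relative signal of 4.23 on the control array and 3.80 on the *Drp1*LiKO array, for a log2 ratio of -0.15. The 2 other detected probes, both designed to another transcript, start at 16885499 and 16885382 and gave 0.64 and 1.35. The latter had a relative signal of 0.0725 on the control array and 0.185 on the *Drp1*LiKO array and a Z score of 2.08. The middle 30 bases of the 3 probes are shown for this reason, from the highest log2 ratio to the lowest, with capitals as before.
*Top3b*, 1.35, chr16:16885397-16885426, plus strand: ggaattgtgggatttcccatagagatcata
*Top3b*, 0.64, chr16:16885514-16885543, plus strand: ctgcacagatagCCCTGTCTCGAAAAAACA
*Top3b*, -0.15, chr16:16893009-16893038, plus strand: tccagacacatcgtggttatctttgagcca

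The middle one shares 23 bases with the opposite strand of a *Vangl2* probe on chromosome 1. *Parn* differed in a similar way, with -0.01 from its brightest probe and 0.89 from a dim one. For both genes the value depended on the probe.

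**Figure D5:**
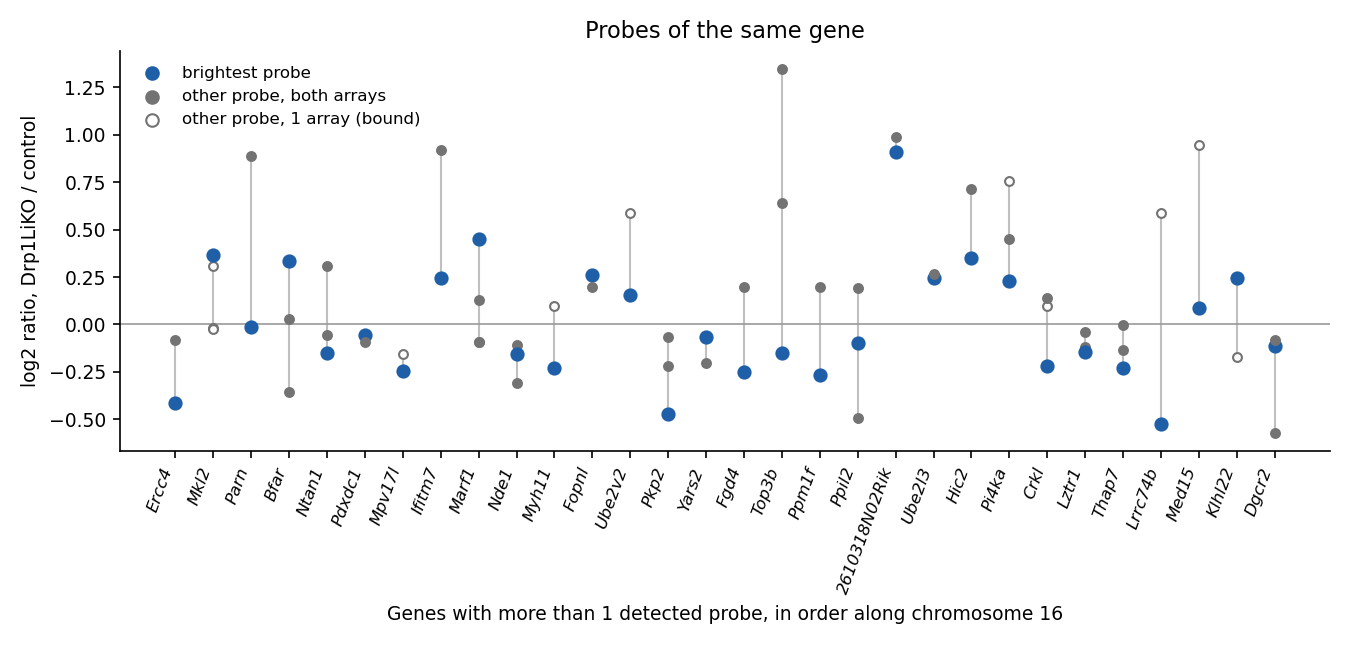
Log2 ratio (y axis, Drp1LiKO over control) of every detected probe of 30 of the 31 flanking genes with more than 1 detected probe, in order along chromosome 16 (x axis); the large blue point is the brightest probe, gray points are other probes measured on both arrays and open points are bounds. In 17 genes all points are on one side of 0, and Top3b has the widest range, from -0.15 to 1.35.

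Some of the brightest entries of the interval share letters with genes elsewhere. The 5 brightest members were *A_55_P2036380*, an unnamed probe, *ENSMUST00000181130*, *Mpv17l*, *NAP114224-1* and *ENSMUST00000170279*, and only *Mpv17l*, a peroxisomal and mitochondrial membrane protein, matched a RefSeq gene. *A_55_P2036380* had a relative signal of 693.8 on the control array and 584.9 on the *Drp1*LiKO array, for a log2 ratio of -0.25. It shares 27 consecutive bases with a probe of the ribosomal protein gene *Rps20* on chromosome 4, which had -0.23. *Gm5481* shares 21 bases with a probe of *Rpl30* on chromosome 15, and their log2 ratios were 0.05 and 0.08. For these entries, signal from the interval and from the similar gene cannot be told apart. *Mpv17l* itself had a relative signal of 183 on the control array and 154 on the *Drp1*LiKO array, for a log2 ratio of -0.25.

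*Ifitm7*, of the interferon-induced transmembrane family, had probes of similar brightness that differed. The brighter gave 52.5 on the control array and 62.3 on the *Drp1*LiKO array, for a log2 ratio of 0.25, and the other 0.92. The brighter shares 31 bases with a *Hemgn* probe on chromosome 4, which had 0.20, and its middle 30 bases are shown before those of the other probe to let the repeat be seen.
*Ifitm7*, 0.25, chr16:13982927-13982956, minus strand: gcgctgtctatagCAGTGTGTGTGTGTGTG
*Ifitm7*, 0.92, chr16:13983761-13983790, minus strand: ggtctctgttcaatacactcttcatgaact

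Among the remaining members within 1 Mb, *Ydjc* had a log2 ratio of -0.35, the splicing cofactor *Ppil2* -0.10, *ENSMUST00000181130* -0.09, the surrogate light chain gene *Vpreb1* 0.08 and *NAP114224-1* 0.20. *Vpreb1*, known from precursor B cells, had a relative signal of 0.299 on the control array and 0.315 on the *Drp1*LiKO array. *ENSMUST00000122873* was above background on the *Drp1*LiKO array only, and its signal allowed no fold. Among the genes of the lists that lie farther away, the adaptor *Crkl* was at -0.22, the Mediator subunit *Med15* at 0.09, *Klhl22* at 0.24, *Scarf2* at -0.02 and *Dgcr2* at -0.11. Of the 61 members measured on both arrays, 41 were within 0.25 of zero.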

How the data were processed

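The authors hybridized RNA of control and *Drp1*LiKO hepatocytes to Agilent 60-mer arrays in 1 color (Cy3), 1 array per genotype, and deposited the Feature Extraction output, which holds the intensity of each spot as a mean with local background and as a processed signal already corrected for background. The submitters' processing notes name Feature Extraction 9.5.1.1, the file header 10.7.1.1. They also deposited normalized intensities. The control column has a rank correlation of 1.0 with its array, but the *Drp1*LiKO column has 0.959. The *Drp1*LiKO column is thus not its array rescaled in order, and which values it holds is not known. This table was used for 1 of the alternatives only, where a difference from the main values need not come from processing.

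From the processed signals, control and outlier spots were left out, log2 signals averaged per probe and the array's 75th percentile subtracted. A probe was kept if either array showed it well above background. A signal that was not was set to the array's lowest signal above background where it lay under it. This gave bounds, which hold only if the true signal lay no higher than that lowest signal. This kept 20165 genes, each by its brightest probe. Names are the array's; 74 of the 100 members matched RefSeq (GRCm38.p6), and coordinates are mm9, from the files. No test was possible. The values of 2 genes of the lists are not reported here. The noise between spots is the median over the 30 repeated probes nearest in signal.

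Named genes were the detected members within 1 Mb, those past the threshold, the 5 largest differences in each direction measured on both arrays, the 5 brightest and members of the role lists; others were chosen after their values were seen. Members and lists were chosen with earlier results of these data known. Alternatives were quantile normalization, normexp with an offset of 50, the deposited table, probes above background on both arrays, no floor, a robust Z score, a gene's median probe and spike-in scaling. The steps were tested on simulated data. Python 3.11.15 (numpy 2.4.6, pandas 2.3.3, scipy 1.17.1, matplotlib 3.10.9) and R 4.3.3 (limma 3.58.1) were used.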

Additional observations from a re-analysis of the deposited data

How the results depend on the processing

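The counts of flanking genes past the threshold were 0 higher and 0 lower, and stayed at 0 in both directions with quantile normalization, the deposited normalized table and the median of a gene's probes. In these settings 2.7% to 3.5% of all genes were past the threshold higher and 2.7% to 3.6% lower. Spike-in scaling adds the same value to every log2 ratio and so cannot change Z scores. With normexp background correction 1 was higher (*Sdf2l1*) and 1 lower (*Serpind1*), against 3.6% and 2.7% of all genes. With probes above background on both arrays only, 1 was lower (*Aifm3*), against 2.34% of all genes. Without a floor 1 was higher (*4930414F18Rik*, dim on the control array), against 4.07% of all genes. A Z score from the median and its absolute deviation gave 4 higher and 2 lower genes, while 8.54% and 7.16% of all genes passed. The median log2 ratio of the members, -0.01, lay between -0.06 and 0.02 in the other settings except spike-in scaling, where it was 0.30. The median within 1 Mb, 0.05, was -0.054 with normexp, -0.067 with probes above background on both arrays and 0.36 with spike-in scaling; it changed sign in the first and second of these, and also with the deposited table (-0.02). Spike-in scaling moved the median of all genes by 0.31, and the median of the members minus that of all genes was 0.04 with either scale. Of 54 named members, 26 kept their sign in all settings that gave a value, and of the 21 with a size of 0.25 or more, 18 did. The exceptions were *Ppm1f* (0.04 with spike-in scaling), *Lrrc74b* (0.03 with the median of its probes) and *Ccdc116* (-0.98 with the deposited table). These counts include settings that could not change a sign. The robust Z score uses the same log2 ratios. Probes above background on both arrays and no floor left the values of members measured on both arrays unchanged. Spike-in scaling raises every value, so it can turn only values below 0. No paired analysis was possible because each genotype had 1 array. The cause of these differences was not tested, and with 1 array per genotype no result could be checked without a replicate.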
